A study of Mus musculus with 6 samples.

Results

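Intronic circular RNAs (circRNAs) were the 1132 rings, of 11895 found in 6 libraries, that the authors' deposited lists class as lying in an intron. The class was taken as deposited, rings were matched between libraries by their coordinates, and a ring that a library did not list was counted as 0. The lists start at 2 junction reads, so an unlisted ring can still hold 1 read. The class of a ring was the same in every library that listed it. The other rings were 10413 exonic and 350 intergenic ones.

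The libraries were made from total RNA labelled as hippocampus of healthy male C57BL/6 mice aged 14 months. The DHT group (3 libraries) received dihydrotestosterone, an androgen, under the skin once a day for 14 days, and the oil group (3 libraries) received medical corn oil by the same schedule. The labels name no transgene or other agent and do not say which libraries are separate animals, so every p below refers to the variation among these 6 libraries, part of which may be technical. Total junction reads were 43512 to 55325 in the DHT group and 43573 to 48212 in the oil group. Of 8 markers of hippocampal fields, 3 averaged above 1 FPKM, and Neurod6, C1ql2, Spink8 and Iyd were among those that did not. Of 9 striatal markers, 8 averaged above 5 FPKM, with Penk at 120 FPKM, so the tissue is named here only as the labels give it. The summed level of 3 erythroid genes was 294 to 906 FPKM in the DHT group and 152 to 287 FPKM in the oil group, without overlap. Taken singly, only Hba-a2 did not overlap, while Hbb-bs and Alas2 did. The part of these genes in the comparisons of DHT with oil was not tested.

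A circRNA forms when a splice donor is joined to an acceptor that lies upstream of it, which leaves a closed ring without free ends. Most known rings hold exons. Rings called intronic can be of at least a pair of kinds: lariats that escaped debranching after splicing, which begin at the base just after an exon, and back-spliced rings that use splice sites outside the annotated exons of their host. Many synaptic genes of the brain have very long introns, and long noncoding RNAs are transcripts without a known protein product.

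The letters beside the ends of a ring were read where a sequence was at hand. No genome sequence was used here, but RefSeq's 300-base windows around gene starts (GRCm38.p6, 250 bases before the start and 50 after) happened to cover 12 different ends of 13 intronic rings. The following stretches of 30 bases hold 20 bases outside the ring and 10 inside it, read along the strand of the host, and they are shown because the capitals mark the AG of an acceptor or the GT of a donor that borders the ring.
Gm21992 acceptor, chr19:4794000-4794029, minus strand: acctcttcctggcctctcAGgtaattggcg
Zmiz1os1 acceptor, chr14:25406923-25406952, minus strand: cttctctctttgctttatAGttaccaagat
Fars2 acceptor, chr13:36207607-36207636, plus strand: aggcctttctgctctctcAGgattgcaccg
Chd9 acceptor, chr8:90932229-90932258, plus strand: ttttgttgttattttcctAGgattctgatg
Kcnma1 acceptor, chr14:23650177-23650206, minus strand: gtgtctcttttcttttgcAGgttgtgttag
Zmiz1os1 donor, chr14:25406782-25406811, minus strand: tttctgctgtGTaagttggttcgccccagg

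The 11 intronic rings with a covered upstream end, which used 10 different ends, all began after an AG there, and both covered downstream ends were followed by a GT. The same was true of 119 of 119 exonic rings with a covered upstream end and 29 of 29 with a covered downstream end. Intergenic rings gave 13 of 13 and 2 of 2. The circRNA caller is not stated, and one that keeps only junctions with these letters would fix such counts in advance. The counts therefore do not show which kind of border a ring uses. Over every position of all 32851 windows, read on the gene's strand, AG stood at 7.69% and GT at 4.98%. The 18 bases before the AG held 75.6% C or T on average (SD 11.8, range 50 to 88.9) over 10 different intronic acceptors, against 46.9% before every AG of the windows. Such a pyrimidine tract is the usual mark of a splice acceptor. For Gm21992, whose RefSeq synonym names a read-through of Rbm14 and Rbm4, and for Chd9, a chromatin remodeller, the covered end was also an annotated gene start in RefSeq. The windows lie at gene starts, so these ends are not a sample of all intronic rings. For acceptors and donors alike, the stretches printed above belong to the covered rings with the most reads. Those not printed include the other donor, of Gm20492, whose ring had 2 reads in 1 library.

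The coordinates gave a second view of the same borders. Of the 1132 intronic rings, 720 (63.6%) had at least 1 end at an exon border of the assembled transcripts or at an end of an exonic ring. Both ends lay at assembled borders in 109 (9.63%) and 1 end did in 420 (37.1%), and among exonic rings the same shares were 16.6% and 37.9%. The transcript files list mainly alternative exons, so they miss many borders of both kinds. An end was shared with an exonic ring by 451 intronic rings: 450 shared 1 end and 1, of Gm21992, shared both. The shared end was the downstream one, the donor, in 297 rings and the upstream one, the acceptor, in 155. The first base after an assembled exon, where a lariat would begin, was the start of 2 rings (0.177%). Because many borders are missing, this count does not show how the rings formed, which was not tested.

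Intronic rings also came in close pairs. In 17 pairs the rings shared 1 end and differed at the other by at most 12 bases, and 15 of these pairs differed at the upstream end. The distance was 3 bases in 8 pairs, all at the upstream end, in Fmn1 (3 pairs), Hivep2 (2 pairs), Ppp1r14c, Rims2 and Zfp292. In Fmn1, a formin that builds actin filaments, rings to the same downstream end at chr2:113563370 began at 113426522 with 144 reads and at 113426525 with 94 reads. In Hivep2, a zinc finger transcription factor, the site further upstream had 4 reads and the site 3 bases downstream had 85 reads, to a shared end at chr10:14086082. In Rims1 a 6-base shift separated a ring of 231 reads from one of 3 reads. The origin of these small shifts was not tested.

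Next, the number of intronic rings was compared between treatments. DHT libraries listed 394, 363 and 298 intronic rings, and oil libraries listed 311, 314 and 329. The lowest and the highest value both came from DHT libraries, so the groups overlapped. The means were 352 ± 49.0 in the DHT group and 318 ± 9.64 in the oil group (SD, n = 3 each), a difference of 33.7 rings (exact permutation test, two-sided, p = 0.4, where 3 against 3 cannot go below 0.100). Thinned to the smallest library, the numbers were 319 ± 18.7 in the DHT group and 305 ± 21.8 in the oil group (exact permutation test, p = 0.500). In bulk RNA, fewer cells of a type and less RNA per cell cannot be told apart, here or below.

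Their reads gave the same picture. Intronic junctions took 2148, 1899 and 1496 reads in the DHT group and 1756, 1575 and 1675 in the oil group. That was 3.88, 3.81 and 3.44% of all junction reads in the DHT group and 3.64, 3.44 and 3.84% in the oil group. The mean shares were 3.71 ± 0.239% in the DHT group and 3.64 ± 0.203% in the oil group (SD, n = 3 each), which differed by less than the spread (exact permutation test, p = 0.8). Per M (mega) mapped reads, intronic junctions stood at 11.3 ± 0.839 in the DHT group and 10.7 ± 0.426 in the oil group (SD, n = 3 each; exact permutation test, p = 0.300).

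**Figure D1:**
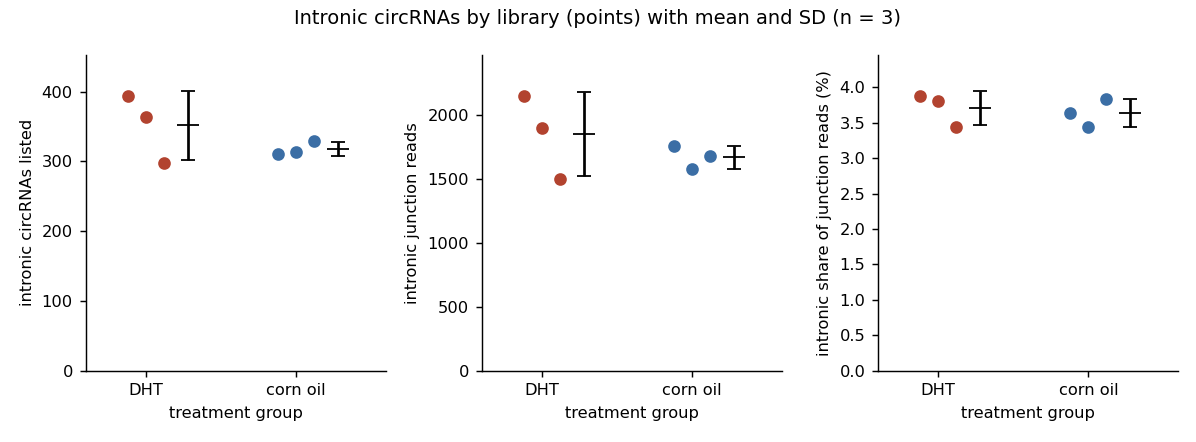
Number of intronic circRNAs listed, their junction reads and their share of all junction reads (y axes, from 0) in DHT and corn oil libraries (points, with mean and SD beside them, n = 3 each). The groups overlap in all 3 panels, and the shares of reads lie between 3.44 and 3.88% in every library.

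Most intronic rings were rare. The median ring had 3.00 reads over the 6 libraries, and within a library 33.5 to 37.7% of listed intronic rings stood at the minimum of 2 reads, against 18.4 to 20.7% of exonic rings. The 99 rings with at least 20 reads in all held 56.4% of the 10549 intronic reads, and 14 rings passed 100 reads. Intronic rings made up 6.83 ± 0.482% of the listed rings in the DHT group and 6.81 ± 0.475% in the oil group (SD, n = 3 each; exact permutation test, p = 1.0).

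Recurrence moved with this rarity. Of the intronic rings, 742 (65.5%) were listed in 1 library and 53 (4.68%) in all 6, and those 53 carried 44.2% of the intronic reads. Of the exonic rings, 45.4% were listed in 1 library and 14.4% in all 6. Among rings with at least 20 reads the shares in all 6 libraries were 52.5% for intronic and 62.8% for exonic rings. In narrower bins of read totals the gap changed sign: of rings with 20 to 39 reads, 17.9% of 56 intronic and 29.0% of 1111 exonic ones were in all 6 libraries, and of rings with 40 to 79 reads it was 93.8% of 16 and 88.2% of 695. All 27 intronic rings with 80 reads or more were in every library, as were 97.7% of the 570 exonic ones.

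By treatment, 441 intronic rings (39%) were listed in the DHT group only, 382 (33.7%) in the oil group only and 309 (27.3%) in both. Among exonic rings the shares were 29.0% in the DHT group only, 24.1% in the oil group only and 46.9% in both. The larger share of DHT-only rings was thus seen in both classes. None of the one-sided intronic rings had more than 17 reads in the DHT group or more than 13 in the oil group. Listed in all 3 DHT libraries and no oil library were 4 rings, named here after their values were seen. The ring of Hibadh, an enzyme of valine breakdown (chr6:52609145-52630349), had 5, 3 and 6 reads in the DHT group, that of 6530403H02Rik 3, 2 and 6, that of Ppp2r2c, a regulatory subunit of protein phosphatase 2A, 2, 4 and 2, and that of the corepressor gene Runx1t1 2, 2 and 2. The reverse held for 2 rings, of Cnnm2 (4, 4 and 3 reads in the oil group) and Ociad1 (4, 2 and 2). As shares of the intronic rings these are 0.353% and 0.177%, and for exonic rings the shares were 0.797% and 0.278%. Counts this low lie close to the minimum of 2 reads, so no fold is given.

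The length a ring spans on the genome ran from 135 to 199744 bases. The median was 21384 bases, with quartiles of 4288 and 67914 bases, and 122 rings (10.8%) were under 1000 bases while 366 (32.3%) were over 50000 bases. Of these long rings 204 belonged to 1 host, Snhg14. The rings of all other hosts had a median of 12668 bases and those of Snhg14 one of 79816 bases, and exonic rings had one of 13192 bases.

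The difference in span from exonic rings therefore depended on Snhg14. Within a library the median intronic span exceeded the exonic one by 4590 ± 2485 bases (SD, n = 6 libraries) and was longer in 6 of 6 libraries (exact sign-flip permutation test, two-sided, p = 0.0312, the smallest 6 libraries allow). Without the Snhg14 rings, an alternative chosen after seeing the data, the difference was -1577 ± 1451 bases, with the same exact permutation p of 0.0312, so the direction turned. With at least 5 reads per library it was -2251 ± 1909 bases (exact permutation p = 0.0625). Very short rings were the steadier feature: 9.93 ± 2.08% of the intronic rings of a library and 7.09 ± 0.267% of the exonic ones were under 1000 bases, a difference of 2.85 ± 1.90 percentage points, and without Snhg14 it was 4.99 ± 2.33 points (SD, n = 6; exact sign-flip permutation p = 0.0312 for both, chosen after seeing the data).

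**Figure D2:**
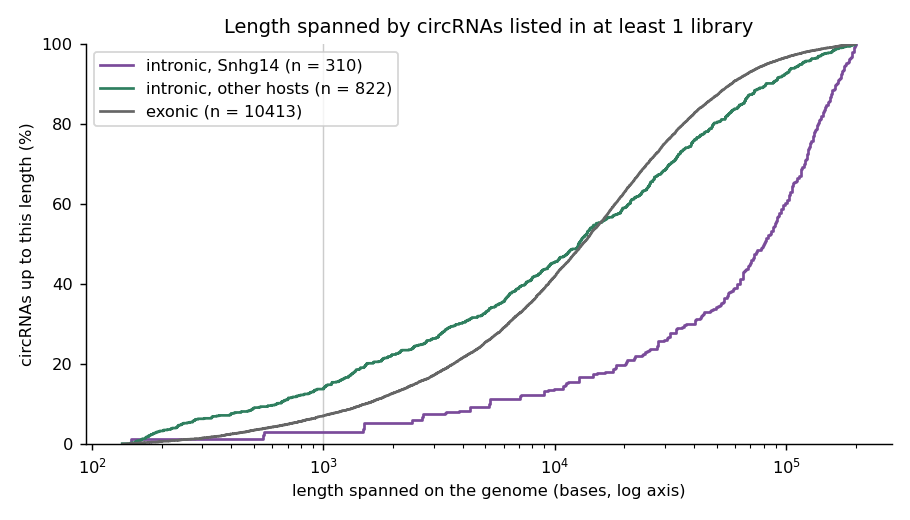
Share of circRNAs (y axis, %) up to a given length spanned on the genome (x axis, bases, log axis) for 310 intronic rings of Snhg14, 822 intronic rings of other hosts and 10413 exonic rings. The line of the other intronic rings starts above the exonic line below 1000 bases and crosses under it at long spans, and the Snhg14 line lies far to the right, with a median of 79816 bases.

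Snhg14 is a long noncoding RNA that hosts arrays of small nucleolar RNAs (snoRNAs) in its introns and runs antisense to Ube3a, an imprinted ubiquitin ligase gene whose paternal copy is silenced in neurons. RefSeq places it at chr7:59272737-60450177 with 206 snoRNA genes inside its bounds. Of these, 132 genes of 78 to 79 bases form a first array from 59347681 to 59619095 with a median spacing of 1871 bases, and 70 genes of 90 to 94 bases form a second array from 59673461 to 59904848. The units of each array are near-identical copies, so a junction read can match more than 1 unit and the exact ends of these rings are uncertain.

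This host alone held 310 intronic rings (27.4%), with 1555 junction reads (14.7% of the intronic reads), all on the minus strand. Both ends lay in the first array in 268 rings (86.5%) and in the second array in 33, and 2 rings, with 56 reads, joined the arrays. The 310 rings used 66 different left ends and 153 different right ends, in genome order, and 40 of them shared the left end at 59449384. On this strand the left end is the donor side of the ring. Between snoRNA genes, the left end stood exactly 63 bases after the end of the snoRNA gene to its left in 191 of 270 rings (70.7%), and the right end stood 240 bases before the next snoRNA gene in 180 of 269 (66.9%) and 239 bases before it in 27. The remaining ends stood elsewhere, with 26 left ends at 4013 bases and 16 right ends at 1609 bases as the next most frequent distances apart from those given.

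**Figure D3:**
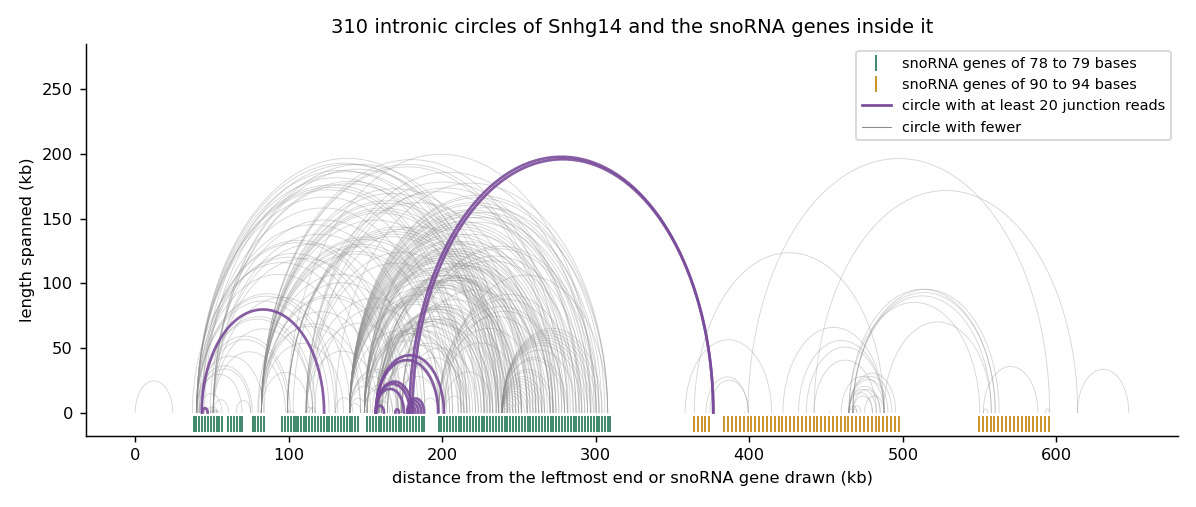
The 310 intronic rings of Snhg14 as arcs between their ends (x axis, distance in kb; arc height, length spanned in kb), with the snoRNA genes inside the host as ticks below. Of the arcs 268 have both ends in the first array of snoRNA genes and 33 in the second, and 2 of the 15 arcs with at least 20 reads join the arrays.

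Snhg14 rings were many and individually rare. Of them 203 (65.5%) were listed in 1 library and 2 in all 6, and none had more than 39 reads. The ring at chr7:59486959-59492193 had 6, 11 and 5 reads in the DHT group and 3, 6 and 8 in the oil group. The ring at chr7:59466433-59506958, also with 39 reads, had 0, 9 and 10 reads in the DHT group and 0, 9 and 11 in the oil group, so equal totals came from different numbers of libraries. The longest of the 99 intronic rings with at least 20 reads, chr7:59488404-59686171, joined the arrays over 197768 bases with 0, 10 and 6 reads in the DHT group and 0, 0 and 16 in the oil group.

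Summed over the host, Snhg14 rings had 297, 284 and 217 reads in the DHT group and 197, 223 and 337 in the oil group. Oil library 3 was the highest and oil library 1 the lowest. Per M mapped reads that was 1.63 ± 0.101 in the DHT group and 1.61 ± 0.480 in the oil group (SD, n = 3 each), which differed by less than the spread (exact permutation test, p = 1.0).

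Beyond Snhg14 the hosts were spread widely. The rings carried 564 host symbols, 398 of them with 1 ring and 24 with at least 5, and 402 (71.3%) also hosted an exonic ring. After Snhg14 the host symbols with the most intronic rings were Fgfr2, Dpp10 and Rims2 with 10 each, then Fmn1, Zranb1 and Gm20696 with 9 each. A ring with more than 1 host symbol (45 rings) was counted under each, so the counts of Fgfr2 and Zranb1 overlap. Dpp10 is an auxiliary subunit of Kv4 potassium channels, and Rims2 is a scaffold of the presynaptic active zone that hosted 34 exonic rings as well. The main ring of Fgfr2 and Zranb1 carries both names, but it lies inside the RefSeq bounds of Zranb1 (chr7:132931176-132986398), a deubiquitinase, and outside those of Fgfr2 (chr7:130162451-130266808).

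Long noncoding RNAs were over-represented among the hosts. With Snhg14 left out of both classes, 9.97 ± 1.08% of the intronic rings of a library had a host that RefSeq classes as lncRNA, against 1.04 ± 0.0545% of exonic rings (SD, n = 6 libraries). The difference of 8.92 ± 1.08 percentage points was seen in 6 of 6 libraries (exact sign-flip permutation test, two-sided, p = 0.0312, chosen after seeing the data). Of the matched hosts, 38 (7.01%) were lncRNAs among intronic rings and 54 (1.5%) among exonic rings, and 26 of the 38 hosted no exonic ring. The 70 lncRNA rings outside Snhg14 held 1437 of 8994 reads. The class of a ring is the authors', and the annotation behind it is not named in the sources used here.

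In a list of 20 well-known long noncoding hosts, 4 had an intronic ring: Snhg14, Rian, Pvt1 and Sox2ot. The 3 hosts other than Snhg14 added 4 rings and 27 reads. Of 10 hosts of stable intronic RNAs known from earlier work, 1 had an intronic ring, Fto, with 2 reads in oil library 2. Of 39 synapse genes, 29 hosted 78 intronic rings with 1100 reads, and 35 hosted exonic rings. The summed reads of the synapse list were 229, 203 and 145 in the DHT group and 189, 135 and 199 in the oil group, which overlapped. Of its rings 9 had at least 20 reads and 7 were in all 6 libraries.

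Of the 12 intronic rings with the most reads, the first and the second came from lncRNAs and the others from protein-coding hosts. A ring of A230006K03Rik, a lncRNA in RefSeq (chr7:61194987-61202989, 8003 bases), had 97, 70 and 72 reads in the DHT group and 77, 64 and 63 in the oil group. Its host had 7 intronic rings and no exonic one, and 4 of them shared the left end at 61194987, with 481 reads. A ring of the lncRNA Gm2164 (chr4:124556045-124586127) had 53, 37 and 39 reads in the DHT group and 29, 47 and 31 in the oil group. Here too 5 rings shared a left end, with 365 reads, and the host had no exonic ring. Both rings lay at assembled exon borders at both ends.

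The ring of Gm21992 (chr19:4784724-4794009) came next, with 40, 25 and 30 reads in the DHT group and 65, 43 and 29 in the oil group. Its upstream end is the Rbm4 start whose acceptor is printed above. Rbm4 encodes a splicing factor. The ring of Rims1, a presynaptic active zone scaffold (chr1:22346293-22393948), had 42, 34 and 34 reads in the DHT group and 44, 27 and 50 in the oil group. In both rings the groups overlapped.

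The ring within Zranb1 (chr7:132948044-132950435) had 44, 28 and 32 reads in the DHT group and 31, 33 and 25 in the oil group. The longest of the 12 most abundant, in Fmn1 (chr2:113426522-113563370), spanned 136849 bases with 22, 26 and 27 reads in the DHT group and 30, 14 and 25 in the oil group. The shortest, in Dlg2, which encodes the postsynaptic scaffold PSD-93 (chr7:91626329-91626813), spanned 485 bases with 29, 21 and 12 reads in the DHT group and 21, 10 and 21 in the oil group. A ring of similar size in Tmem178b (chr6:40004145-40004671, 527 bases) had 28, 23 and 14 reads in the DHT group and 15, 20 and 17 in the oil group. No end of the Fmn1, Dlg2 and Tmem178b rings lay at a border known from the files.

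The other rings among the 12 had 102 to 132 reads in all and overlapped between groups. They belonged to Ssbp2, Erc2 (a second active zone scaffold), Cntn5 (a contactin, a neuronal adhesion molecule) and Ctnna2 (the neuronal alpha-catenin). Across the 12, log2 fold changes (DHT over oil) lay between -0.63 in Gm21992 and 0.30 in Erc2.

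**Figure D4:**
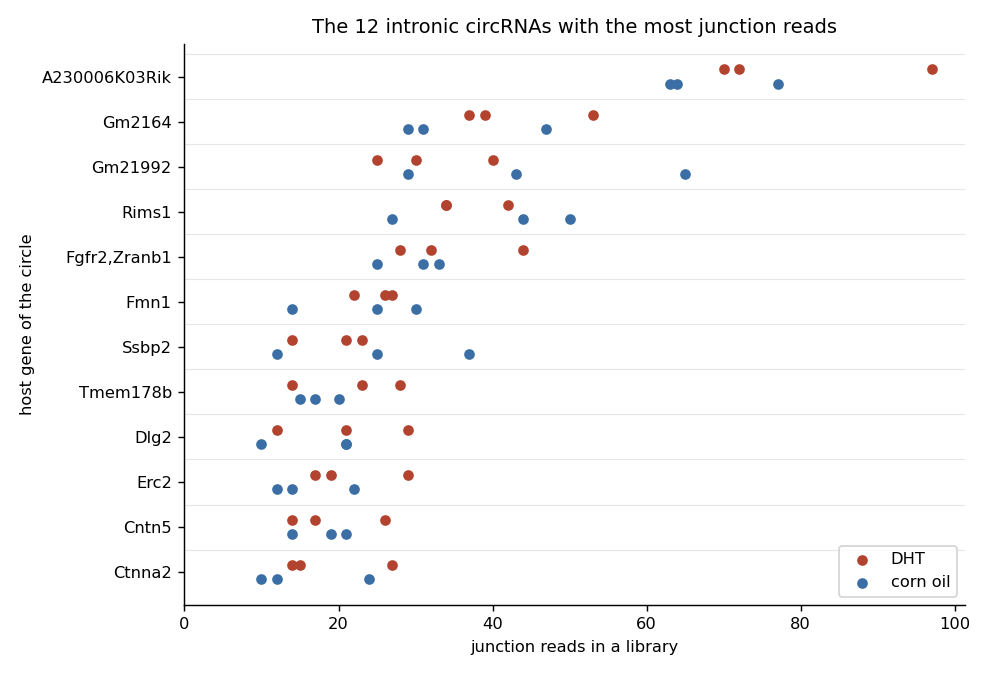
Junction reads (x axis) in each DHT library (upper points) and corn oil library (lower points) for the 12 intronic circRNAs with the most reads, named by host (y axis); equal values overlap. The ring of A230006K03Rik has 63 to 97 reads in every library, and the groups overlap in every row.

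How much of the local RNA was circular varied widely between rings. The circular share is the junction reads divided by junction plus linear reads at the ring, from the deposited counts. Linear reads are given only where a library lists the ring, so the share covers those libraries alone. Of the 99 rings with at least 20 reads, 52 were listed in all 6 libraries, and for the others the share can be too high. Among the 99 rings its median was 6.41%. The highest shares were 58.4% for the main Gm2164 ring (236 junction and 168 linear reads), 52.8% for a ring of Pcdh15, a protocadherin, and Gm15398 (57 and 51 reads), 42.8% for E2f5, a transcription factor of the E2F family (101 and 135 reads), and 33.1% for A230006K03Rik (443 and 897 reads). Among the lowest were 0.249% for Rab6b, a neuronal Golgi GTPase (24 junction and 9609 linear reads), 1.03% for Elfn2 and 1.06% for 1 Snhg14 ring.

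Intronic rings had larger circular shares than exonic rings. Both stood below intergenic rings, whose median share within a library was 14.4 ± 2.61% (SD, n = 6 libraries). Within a library the median share was 3.33 ± 0.285% for intronic rings and 2.25 ± 0.167% for exonic rings (SD, n = 6 libraries), a difference of 1.07 ± 0.383 percentage points that was positive in 6 of 6 libraries (exact sign-flip permutation test, two-sided, p = 0.0312). Without Snhg14, whose rings had a median share of 1.09 ± 0.145%, the difference was 2.65 ± 0.358 points, and pooled over reads it was 0.368 ± 0.232 points. The linear reads at a ring depend on where its ends lie, and the sources used here do not give how they were counted.

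Between treatments the pooled circular share of intronic rings was 2.82, 2.80 and 2.97% in the DHT group and 3.29, 2.72 and 2.93% in the oil group. The means of 2.86 ± 0.0968% in the DHT group and 2.98 ± 0.290% in the oil group differed by less than the spread (SD, n = 3 each; exact permutation test, p = 0.700). Without Snhg14, chosen after seeing the data, the share was 3.62 ± 0.0516% in the DHT group and 4.22 ± 0.315% in the oil group, without overlap (SD, n = 3 each; exact permutation test, p = 0.100, the smallest possible). With at least 5 reads per library it was 6.11 ± 0.447% in the DHT group and 5.75 ± 0.784% in the oil group, the other way round (SD, n = 3 each; exact permutation test, p = 0.700).

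Ring by ring, no intronic circRNA passed an adjusted p of 0.05 between DHT and oil. Of 99 tested, edgeR called 0, against 0% of all 2524 circRNAs tested, and DESeq2 called 0 as well. At an unadjusted p under 0.05, edgeR gave 3 (3.03%), against 3.13% of all tested, and DESeq2 gave 1 (1.01%), against 2.89%. The threshold stated for the series, unadjusted p under 0.05 with at least 2-fold, was met by 1 intronic ring (1.01%), against 2.26% of all tested. It was higher in DHT, as were 1.27% of all tested, while no intronic ring and 0.990% of all tested met it on the lower side. The DHT and oil libraries did not overlap in 12 of 99 (12.1%), against 11.1% of all tested. Higher in DHT without overlap were 3 of the 99 (3.03%), against 5.74% of all tested, and lower were 9 (9.09%), against 5.31%. Log2 fold changes were above 0 in 53 (53.5%), against 50.4% of all tested, with a median of 0.05 among intronic rings and 0.01 among all. In simulated counts of all 2524 circRNAs with a common spread, 6 of 66 changed by 3-fold were recovered. Changes of that size in single circRNAs were thus mostly not detectable there, and the 99 intronic rings were not simulated on their own.

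The ring that met the series' threshold belonged to Fam193a (chr5:34419998-34444913). It had 5, 5 and 15 reads in the DHT group and 3, 0 and 0 in the oil group. Its log2 fold change was 2.88 (SE 1.26, edgeR unadjusted p = 0.0396, adjusted p = 0.996). Its place past the threshold was lost when either oil library 2 or 3 was left out, and omitting DHT library 3 left fewer than 20 reads to test. Over the leave-one-out fits that could be made, the log2 fold change ran from 2.37 to 6.08, the last with no oil reads left. The other tested Fam193a ring, from the same start to 34466447, had a log2 fold change of 0.58 (SE 0.86, edgeR adjusted p = 0.996). It had 5, 12 and 7 reads in the DHT group and 11, 0 and 4 in the oil group.

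Further rings stood next in order of p among those with a positive fold change. A ring of Gm49685 and Cdh12, a cadherin (chr15:20833297-20840805), had 14, 6 and 7 reads in the DHT group and 0, 0 and 7 in the oil group. A ring of Klhl32 (chr4:24682055-24693634) had 5, 15 and 8 reads in the DHT group and 7, 4 and 0 in the oil group. A ring of Nrg1, a ligand of ErbB receptors (chr8:32441010-32503325), had 11, 23 and 17 reads in the DHT group and 7, 16 and 6 in the oil group. The groups overlapped in all 3, and their log2 fold changes were 1.71, 1.25 and 0.70 (edgeR adjusted p = 0.996 each). With 1 library left out these ran from 1.16 to 6.15, from 0.71 to 2.04 and from 0.45 to 1.29 in that order, the 6.15 with no oil reads left. The other tested Nrg1 ring (chr8:32501281-32508736) went the other way, with a log2 fold change of -0.66. It had 5, 2 and 5 reads in the DHT group and 9, 5 and 4 in the oil group. The other tested ring of Gm49685 and Cdh12 (chr15:20833297-20836029) had a log2 fold change of 0.70.

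On the lower side the ring of E2f5 (chr3:14587310-14588313) had 12, 16 and 9 reads in the DHT group and 24, 15 and 25 in the oil group. Scaled by library, the 3 DHT libraries lay below the 3 oil libraries, with a log2 fold change of -0.91 (SE 0.38, edgeR unadjusted p = 0.0324, adjusted p = 0.996), and -1.11 to -0.71 with 1 library left out. The ring of Gm21992 had a log2 fold change of -0.63 (SE 0.29, edgeR unadjusted p = 0.0469, adjusted p = 0.996), with an unadjusted p of up to 0.295 when 1 library was left out. The ring of Efnb2, the ephrin-B2 ligand of Eph receptors (chr8:8639206-8641256), had 6, 4 and 3 reads in the DHT group and 7, 11 and 8 in the oil group. Its groups did not overlap, and its log2 fold change was -1.11 (edgeR adjusted p = 0.996).

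In Fmn1 the log2 fold changes of the 3 tested rings lay on both sides of 0. The ring to 113563370 from 113426525 had 26, 21 and 11 reads in the DHT group and 15, 13 and 8 in the oil group (log2 fold change 0.56). From the start 3 bases upstream, to the same end, the log2 fold change was 0.01, and from that start to 113478963 it was -1.81, with 0, 3 and 3 reads in the DHT group and 11, 5 and 5 in the oil group. None passed (edgeR adjusted p from 0.996 to 1.0), and the differences between these rings were not tested.

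**Figure D5:**
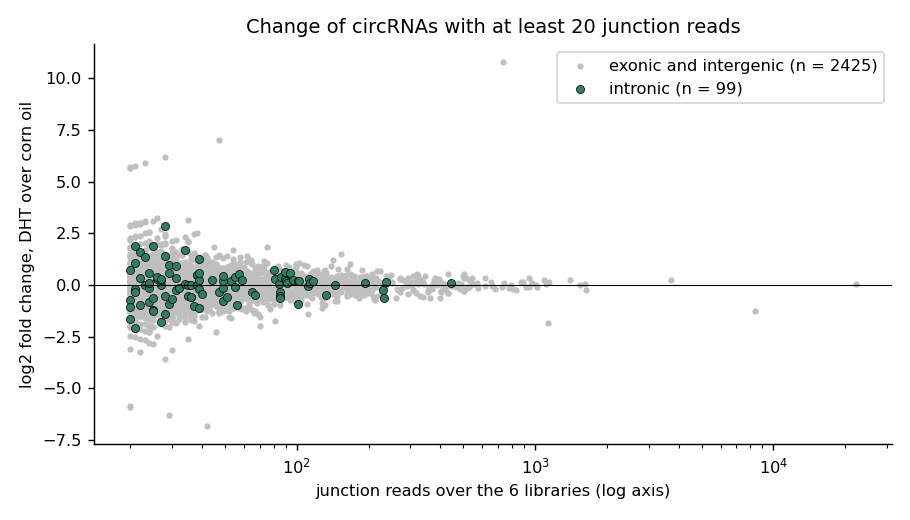
Log2 fold change of DHT over corn oil (y axis) against junction reads over the 6 libraries (x axis, log axis) for the 99 intronic circRNAs (green) and the other circRNAs (grey) with at least 20 reads. Intronic rings lie between -2.08 and 2.88 and narrow toward 0 as reads increase, within the grey cloud.

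Linear reads could be tested at the 53 intronic rings listed in all 6 libraries. None passed an adjusted p of 0.05 with edgeR, against 0.886% of all 1581 rings tested, and none did with DESeq2, against 1.45%. At an unadjusted p under 0.05, edgeR gave 7 (13.2%), against 11.8% of all tested. The DHT level was the higher one at 2 of the 53 (3.77%), against 6.39% of all tested, and the lower one at 5 (9.43%), against 5.44%. DESeq2 gave 2 (3.77%), against 8.22%. Linear reads were higher in DHT at 18 of 53 (34.0%), against 49.3% of all tested. The 5 lower ones in edgeR included Snhg14 rings that share the left end at chr7:59486959. In the DHT group the ring to 59495929 had 454, 420 and 345 linear reads and that to 59492193 had 455, 421 and 339. The 53 are thus not all separate measurements. In simulated linear counts of all 1581 rings with a common spread, edgeR recovered 62 of 67 changes of 1.5-fold, with 3 false calls among 197. The 53 intronic rings were not simulated on their own. Their SE reached 0.56, at the ring of Pcdh15 and Gm15398, so this recovery does not give what was detectable at each of them.

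The smallest p stood at Gm21992, with 157, 219 and 142 linear reads in the DHT group and 210, 198 and 238 in the oil group. Its linear log2 fold change was -0.40 (SE 0.14, edgeR adjusted p = 0.217), so junction and linear reads both had negative log2 fold changes and neither passed. At Rims1 the linear reads were 259, 216 and 184 in the DHT group and 199, 183 and 114 in the oil group, a log2 fold change of 0.33 (SE 0.15, edgeR adjusted p = 0.389), while its ring had one of -0.26 (SE 0.28, edgeR adjusted p = 0.996). A short ring of Rbfox1, a neuronal splicing factor (chr16:5956249-5956863, 615 bases), had linear reads of 143, 138 and 112 in the DHT group and 177, 122 and 165 in the oil group (log2 fold change -0.32, edgeR adjusted p = 0.419). Its junction reads were 17, 14 and 13 in the DHT group and 27, 9 and 4 in the oil group, with the oil libraries on both sides of DHT.

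Among the other synaptic hosts with a tested ring, Nlgn1, a postsynaptic adhesion molecule (chr3:26133242-26135389), had 8, 24 and 14 junction reads in the DHT group and 16, 7 and 12 in the oil group. Erc2 (chr14:28317249-28384043) had 29, 19 and 17 reads in the DHT group and 12, 14 and 22 in the oil group. The rings that follow have hosts outside the synapse list and were named for their short span. A short ring of Pgbd5, derived from a piggyBac transposase (chr8:124396253-124396584, 332 bases), had 9, 8 and 7 reads in the DHT group and 12, 9 and 4 in the oil group. One of Rps6ka5, the kinase MSK1 (chr12:100654047-100654489, 443 bases), had 7, 3 and 5 reads in the DHT group and 7, 7 and 6 in the oil group. Scaled by library, its DHT levels all lay below its oil levels. Log2 fold changes of these 4 rings ran from -0.52 to 0.30, none past the adjusted threshold (edgeR adjusted p = 0.996 each).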

How the data were processed

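For each library the authors deposited counts of junction reads and of linear reads at each circRNA, with a score, SRPBM, which scales junction reads to G (giga) mapped reads and was deposited as whole numbers, per the labels' protocols. Mapped reads (143 to 177 M, mega) were worked out from the score. FPKM values of transcript events were deposited by the authors. Gene FPKM was the larger of summed first-exon and summed last-exon events, and an exact 0 can be a failed estimate. Submitters' processing notes name bcl2fastq 2.17.1.14, cutadapt, HISAT2 2.0.1, BWA and mm9. However, 99.5% of 11502 circRNAs lay inside their host's GRCm38 bounds, so coordinates are given as GRCm38. The circRNA caller, the strand setting and the linear counting are not stated in the sources used here, so overlapping and antisense genes cannot be told apart.

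circRNAs of every type with at least 20 reads (2524) were fitted with edgeR 4.0.16 (quasi-likelihood, TMM) or DESeq2 1.42.0, with Benjamini-Hochberg adjustment, and linear counts of the 1581 circRNAs listed in all 6 libraries likewise. Single values were compared with exact permutation tests. On simulated junction counts of every type with a common spread, edgeR recovered 0 of 67, 1 of 67 and 6 of 66 circRNAs changed by 1.5-, 2- and 3-fold. R 4.3.3, Python 3.11.15, pandas 2.3.3, scipy 1.17.1 and matplotlib 3.10.9 were used. Alternatives covered normalization, count minimums, thinning and leaving out libraries. Rings were named by reads, p, span, circular share and host lists, and some named items are not reported here. The members and lists were chosen with earlier results of these data known.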

Additional observations from a re-analysis of the deposited data

How the results depend on the processing

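Of the DHT comparisons that differed by less than the spread, 3 changed direction with the setting. The difference in the intronic share of reads (DHT minus oil) was -0.0455 points with unplaced scaffolds left out of the total and -0.0323 to 0.206 with 1 library left out. That in the share of listed rings was -0.0797 after thinning and -0.209 to 0.289 with 1 library left out, and that in the circular share was 0.368 at 5 reads or more and -0.246 to 0.0401. Over the same omissions the differences in reads per M mapped reads (0.245 to 1.08) and in the number of rings (12.5 to 60.5) stayed positive. The span difference from exonic rings was -2251 bases at 5 reads or more, -1577 without Snhg14 and 825 with 1 ring per host gene. With 1 library left out the smallest possible p is 0.0625, and the differences from exonic rings were then 3892 to 5202 bases in span, 0.978 to 1.17 points in circular share, 8.57 to 9.15 points in lncRNA hosts and 2.46 to 3.33 points in rings under 1 kb. The series' threshold was met by 7 intronic rings at 6 reads or more, 9 with no filter, 0 at 60 reads or more and 0 to 2 with 1 library left out. The cause of these shifts was not tested, except that each filter changes which rings enter. No paired analysis was possible because the title numbers in the labels differ between the groups, and the library numbers used here only name libraries.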
